A study of Mus musculus with 6 samples.

Results

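The genes described here are 6 members of the ADAM family, Adam19, Adam8, Adam9, Adam10, Adam15 and Adam17, which encode membrane-anchored metalloproteases. They are measured by the probe sets whose annotation names exactly 1 gene symbol, and it is one of the 6, which gave 15 of 45101 probe sets. The family was selected on the log2 difference of Adam19 between these same arrays, and the other 5 were added as its relatives, so the comparison of genotypes describes the members and does not test them. The samples were macrophages grown from the bone marrow of mice without vimentin, an intermediate filament protein, and of their wild-type littermates, with 3 arrays per genotype, so that the number of arrays limits the precision. Both genotypes were on a C57BL/6 background, 17 weeks of age and fed chow, and the marrow of both genotypes was cultured at normal oxygen with cell supernatant as the source of macrophage colony-stimulating factor. The labels do not name the Vim allele, and nothing in them limits the loss of vimentin to macrophages. The labels call the samples biological replicates, and if they share animals or cultures the spread between them is partly technical.

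ADAM proteases are made as inactive precursors. For many of them, furin-type convertases remove the prodomain. The active enzyme cuts the ectodomain of other membrane proteins close to the cell surface, which is called shedding. In macrophages ADAM17 releases TNF and its receptors, and ADAM10 cuts Notch receptors and the amyloid precursor protein, after which gamma-secretase can cut the remaining stub within the membrane. Escort proteins of the iRhom and TspanC8 families bring ADAM17 and ADAM10 to the surface. TIMP3, one of the TIMP proteins, inhibits ADAM17 and ADAM10. Array values report transcript and say nothing of maturation or of protease activity.

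The arrays carried a macrophage profile. All 8 macrophage markers lay above the value used as the filter on dim genes, 6.93 on the log2 scale, with Lyz2 between 13.93 and 14.22 and Cd68 between 13.60 and 13.78. The mean of the 8 was 11.91 to 12.07 on the wild-type arrays and 11.97, 12.01 and 12.36 on vimentin-deficient replicates 1, 2 and 3. Vimentin-deficient replicate 3 stood apart: it correlated with the other arrays at 0.975 to 0.979 across probe sets, against 0.992 to 0.998 among the rest. It also had the lowest mean of the 4 megakaryocyte markers, 7.67 against 8.27 to 8.49 on the others. Of the other marker lists, 0 of 4 mast cell and basophil, 1 of 5 endothelial, 1 of 4 B cell, 3 of 5 T and NK cell, 6 of 8 stromal, 4 of 6 dendritic cell, 4 of 7 neutrophil, 5 of 7 osteoclast, 2 of 2 erythroid and 4 of 4 megakaryocyte markers lay above the filter. The mean of the brightest Vim probe set was 7.43 ± 0.67 (SD, n = 3) in cells labelled vimentin-deficient, against 13.32 ± 0.09 (SD, n = 3) in wild-type cells, so the labels matched the target gene on all 6 arrays. It read 8.20, 6.96 and 7.13 on vimentin-deficient replicates 1, 2 and 3. Replicate 1 was the highest vimentin-deficient array in every Vim probe set.

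Adam19 was the member with lower values in vimentin-deficient macrophages. It encodes meltrin beta, a sheddase known for the cleavage of neuregulins. Its brighter probe set (1418402_at) read 7.12, 7.00 and 7.02 on vimentin-deficient replicates 1, 2 and 3 and 7.73, 7.85 and 7.85 on wild-type replicates 1, 2 and 3. All 3 vimentin-deficient arrays lay below all 3 wild-type arrays, with a gap of 0.61 log2 units between the highest of one genotype and the lowest of the other. The range within a genotype was 0.12 in vimentin-deficient and 0.11 in wild-type cells. The means were 7.05 ± 0.06 (SD, n = 3) and 7.81 ± 0.06 (SD, n = 3), a log2 difference of -0.76 (SE 0.05), or 1.70-fold.

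The dimmer Adam19 probe set (1418403_at) gave a smaller difference of the same sign. It read 6.64, 6.66 and 6.45 on the vimentin-deficient arrays and 6.91, 7.18 and 7.12 on the wild-type arrays. The genotypes did not overlap here either, and the log2 difference was -0.49 (SE 0.11), or 1.40-fold. Its mean over the 6 arrays, 6.83, lay below the filter of 6.93. The 2 probe sets measure the same RNA samples and are not independent. The deposited values do not tell signal from background, and the fold of a gene as dim as Adam19 can be compressed.

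These Adam19 values are a description, because the gene was chosen after this comparison had singled it out. With limma, which fits all genes together, 3 of 13445 tested genes, or 0.0223%, passed an adjusted p of 0.05 with 6 arrays, and 1 of the 6 ADAM genes was among them, the one chosen for that reason. Both groups lay apart without overlap for 15.5% of all tested genes, and for 10.1% with the vimentin-deficient arrays lower. Among the ADAM genes the same held for Adam19 only, in the probe set used for the fit. The residual SD of Adam19 was 0.06 log2 units, against a median of 0.09 over all tested genes. Without vimentin-deficient replicate 3 the log2 difference of Adam19 was -0.75. Lower Adam19 in fewer cells and less Adam19 per cell cannot be told apart in RNA of a whole culture. Of 5 listed erythroid markers, 2 were on the array, Hba-a1 and Klf1. Their mean was lower on all vimentin-deficient arrays by a narrow margin, 7.50 to 7.62 against 7.64 to 7.67. Only 1 of the 2 was lower without overlap, as were 10.1% of all tested genes. Without vimentin-deficient replicate 3, limma called 1 of 8 macrophage markers and the 1 tested endothelial marker higher. Of all tested genes 1.31% were called higher without that array. The part of these markers in the Adam19 values was not tested.

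**Figure D1:**
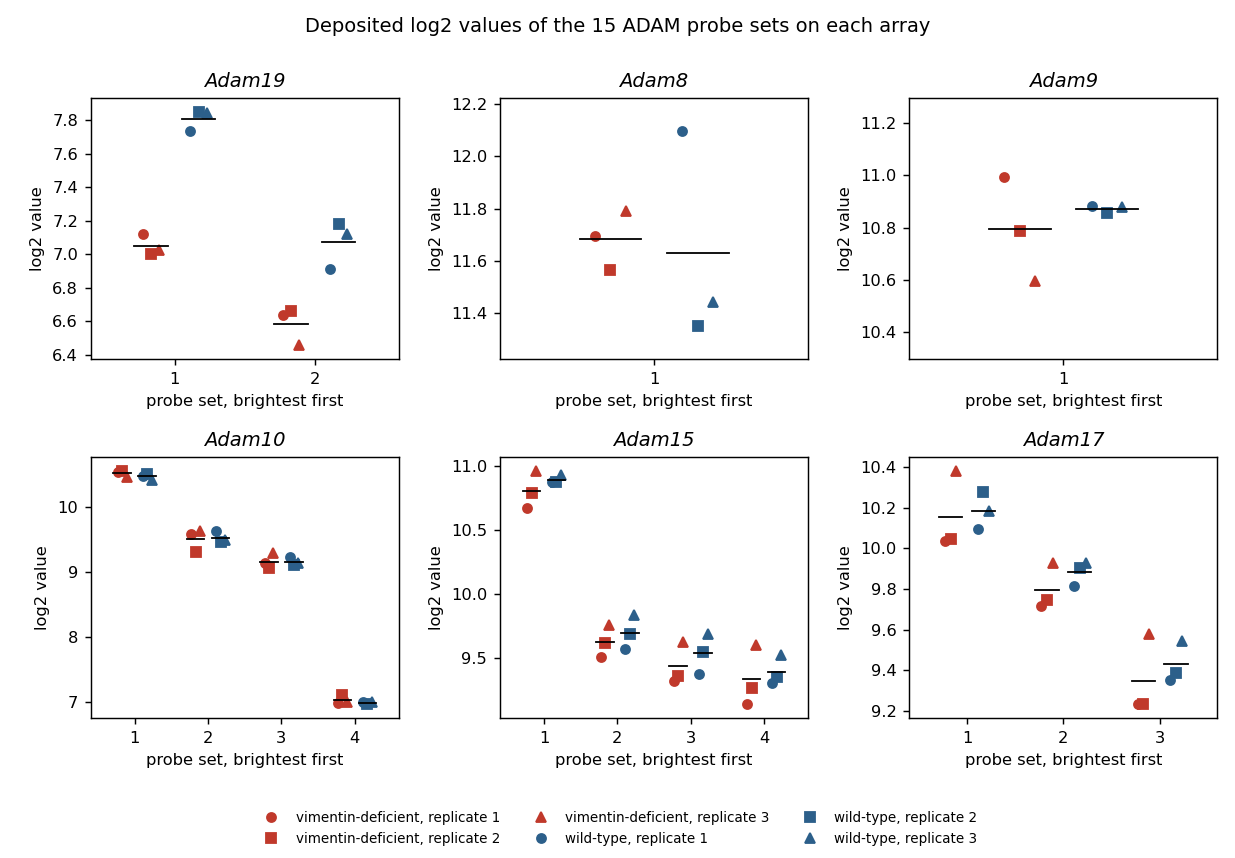
Deposited log2 values of the 15 ADAM probe sets on each of the 6 arrays (vertical axes, different for each gene), with probe sets of a gene numbered from the brightest; red marks are vimentin-deficient and blue marks wild-type arrays, the marker shape is the replicate number and black lines are group means. Both Adam19 probe sets show all vimentin-deficient arrays below all wild-type arrays, and the genotypes overlap in the other 13 probe sets.

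The other 5 ADAM genes had overlapping genotypes in all 13 of their probe sets, with log2 differences between -0.10 and 0.05. Over the full set of 15 probe sets, 11 had a lower mean in vimentin-deficient cells and 4 a higher one. Among all tested genes 60.4% had a lower mean, and their median difference was -0.02. For Adam8, Adam9, Adam10, Adam15 and Adam17 the difference between genotype means in the brightest probe set was smaller than the largest range within a genotype.

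Adam17, the TNF-converting enzyme, had 3 probe sets with log2 differences of -0.03, -0.08 and -0.08. The brightest read 10.04, 10.05 and 10.38 on the vimentin-deficient arrays and 10.10, 10.28 and 10.19 on the wild-type arrays. Vimentin-deficient replicate 3 was the highest of the 6, and the other two vimentin-deficient arrays were the lowest. The log2 difference was -0.03 (SE 0.12), and without replicate 3 it was -0.14. Its sign turned when vimentin-deficient replicate 1 (0.03), vimentin-deficient replicate 2 (0.02) or wild-type replicate 2 (0.01) was left out.

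Adam10, the main alpha-secretase and Notch sheddase, had 4 probe sets, all with means above the filter and with log2 differences from -0.02 to 0.05. The brightest read 10.55, 10.56 and 10.47 on the vimentin-deficient arrays and 10.49, 10.52 and 10.43 on the wild-type arrays. Its range over all 6 arrays was narrow, and the lowest vimentin-deficient array lay below the highest 2 of the wild-type arrays. The log2 difference was 0.05 (SE 0.07). The other 3 probe sets gave -0.02, 0.00 and 0.04.

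Adam15, which encodes metargidin, a protease with a disintegrin domain, had 4 probe sets that all read slightly lower in vimentin-deficient cells, with log2 differences of -0.09, -0.07, -0.10 and -0.06. The brightest read 10.67, 10.79 and 10.96 on the vimentin-deficient arrays and 10.87, 10.88 and 10.94 on the wild-type arrays. Vimentin-deficient replicate 3 lay above every wild-type array and the other two below. The log2 difference was -0.09 (SE 0.09), and without that array -0.16. In all 4 probe sets the array numbered 1 was the lowest and the array numbered 3 the highest of both genotypes. Arrays numbered 3 were the highest of both genotypes in 2 of the 3 Adam17 probe sets too, and for 12.9% of all tested genes. The probe sets of a gene share their RNA, so these repeats are not independent.

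Adam9, which encodes meltrin gamma, had 1 probe set, at 10.99, 10.79 and 10.60 on the vimentin-deficient arrays and 10.88, 10.85 and 10.88 on the wild-type arrays. The wild-type arrays lay within 0.03 of each other, while the vimentin-deficient arrays spread over 0.40 and lay on both sides of them. The log2 difference was -0.08 (SE 0.11), and it turned to 0.02 without vimentin-deficient replicate 3.

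Adam8, a protease gene of granulocytes and macrophages that is known to be induced in inflammation, had 1 probe set as well. It read 11.70, 11.57 and 11.79 on the vimentin-deficient arrays and 12.10, 11.35 and 11.44 on the wild-type arrays. Wild-type replicate 1 was the highest of the 6, 0.65 above the next wild-type array. The wild-type range of 0.75 was the widest within a genotype among the 6 genes. The log2 difference was 0.05 (SE 0.20). It was 0.29 without wild-type replicate 1, -0.09 without wild-type replicate 2 and -0.04 without wild-type replicate 3, so its sign depended on single wild-type arrays.

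**Figure D2:**
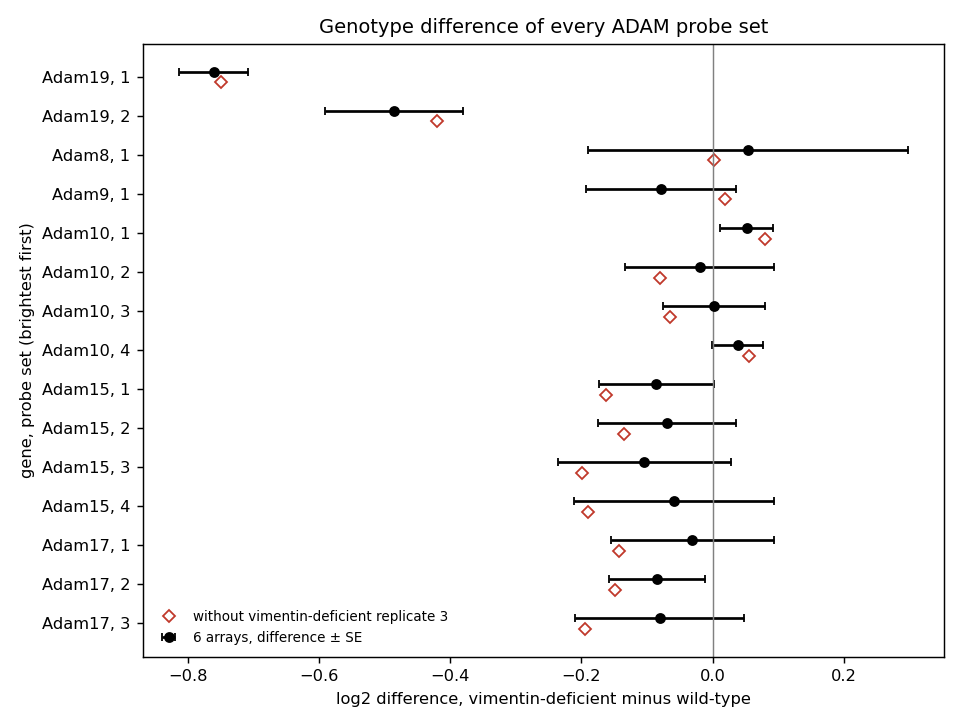
Log2 difference between genotypes (horizontal axis, vimentin-deficient minus wild-type) for each of the 15 ADAM probe sets (vertical axis); black points are 6 arrays with SE from the SDs of both groups (n = 3 each), and open diamonds leave out vimentin-deficient replicate 3. The 2 Adam19 probe sets lie at -0.76 and -0.49, and the other 13 lie between -0.10 and 0.05 with 6 arrays.

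The array that stood apart did not shift the ADAM genes in 1 direction. Set against the average of vimentin-deficient replicates 1 and 2, replicate 3 read 0.20 to 0.40 higher in the 4 Adam15 probe sets and 0.19 to 0.34 higher in the 3 Adam17 probe sets. It read 0.16 higher for Adam8 and 0.29 lower for Adam9. The brightest Adam10 probe set was 0.08 lower on it, the 2 of middle brightness 0.18 and 0.20 higher and the dimmest 0.05 lower. Adam19 was 0.04 and 0.20 lower on it in its 2 probe sets. Of the 8 macrophage markers, 5 had their highest value of the 6 arrays on vimentin-deficient replicate 3, among them Fcgr1, at 11.70 against 9.82 to 10.21, and 2 had their lowest there, Cd68 at 13.60 and Itgam at 9.60 against 10.30 to 10.62. The part of these markers in the Adam15 and Adam17 values was not tested.

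**Figure D3:**
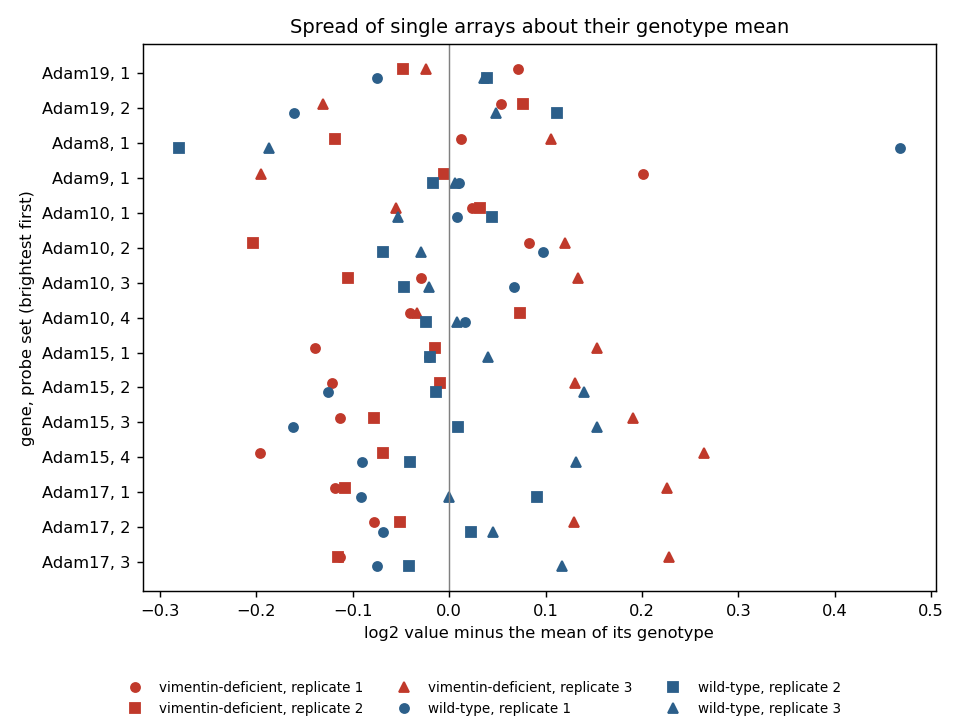
Value of each array minus the mean of its genotype, in log2 units (horizontal axis), for the 15 ADAM probe sets (vertical axis); colours and marker shapes give genotype and replicate. Vimentin-deficient replicate 3 (red triangles) is the highest of its genotype in 10 of the 15 probe sets, and wild-type replicate 1 is the highest array for Adam8.

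The genes whose profile over the 6 arrays came closest to that of Adam19 were found by the mean absolute difference between values centred on each gene's own mean. The closest 5 were Slc9a9, an endosomal sodium-proton exchanger gene (0.07 log2 units from Adam19), Ak8, an adenylate kinase gene (0.07), Sesn1, a stress-responsive sestrin gene (0.10), Mocos, a molybdenum cofactor sulfurase gene (0.11), and Tbc1d4, a Rab GTPase-activating protein gene (0.11). Their log2 differences between genotypes were -0.69, -0.88, -0.74, -0.55 and -0.67. The measure picks genes with a like difference, so these values are a description over 6 arrays. The other 5 ADAM genes lay 0.34 to 0.45 log2 units from Adam19, where the median of all tested genes was 0.37.

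**Figure D4:**
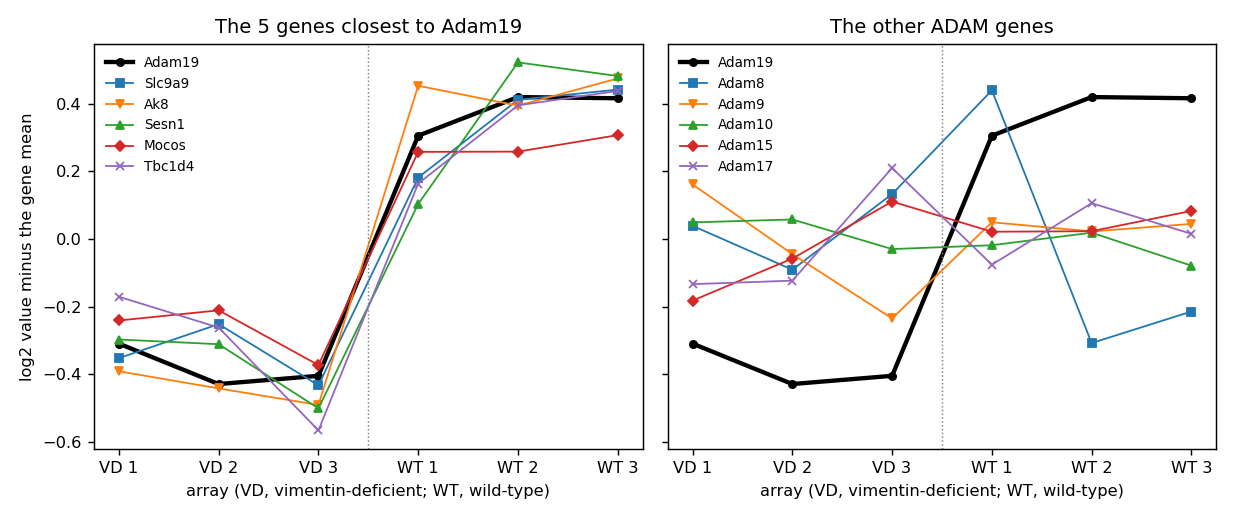
Log2 values centred on each gene's mean (vertical axis) over the 6 arrays (horizontal axis), for Adam19 (black) with the 5 genes of the closest profile on the left and with the other 5 ADAM genes on the right; lines join arrays of 1 gene and do not stand for an order. On the left every gene is lower on all 3 vimentin-deficient arrays, and on the right only Adam19 is.

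Genes that act with the ADAM proteases were taken from 11 lists of 159 genes, of which 141 were on the array and 105 were above the filter. With 6 arrays, limma called 0 of the 105 (adjusted p below 0.05), where 0.0223% of all tested genes were called. Before adjustment, 12 had a limma p under 0.05, which is 11.4% of the 105 against 7.97% of all tested genes. Of these, 11 were lower and 1 was higher, where 4.96% of all tested genes were lower and 3.01% higher. The median log2 difference of the 105 was -0.04, against -0.02 over all tested genes. Without vimentin-deficient replicate 3, limma called 6 of the 105, or 5.71%, where it called 2.34% of all tested genes. It called 4 lower and 2 higher, against 1.03% and 1.31% of all tested genes. The lists were written with earlier results of these data known, so these shares describe them and do not test them.

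Among escorts of ADAM17, Rhbdf1, which encodes iRhom1, was lower on all 3 vimentin-deficient arrays, at 7.72, 7.76 and 8.004 against 8.03, 8.009 and 8.09, on replicate 3 by a narrow margin. Its log2 difference was -0.22 (SE 0.08, limma adjusted p = 0.593), and without vimentin-deficient replicate 3 it fell by 0.30 on the log2 scale (limma adjusted p = 0.0297). Rhbdf2, which encodes iRhom2, the main escort of ADAM17 in immune cells, had 0.09 (SE 0.08), and Frmd8, which stabilises both, had -0.04 (SE 0.07).

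All 6 TspanC8 tetraspanin genes had lower means, with a median of -0.05, and 0 passed. Among all tested genes 60.4% had a lower mean, and 10.1% were lower without overlap, as were 2 of these 6. Tspan17 read 8.85, 8.90 and 8.71 on the vimentin-deficient arrays and 9.02, 9.31 and 9.38 on the wild-type arrays, without overlap, with a log2 difference of -0.42 (SE 0.11, limma adjusted p = 0.402). A further Tspan17 probe set gave -0.28. Tspan14, at 10.42, 10.39 and 10.34 against 10.61, 10.56 and 10.62, also did not overlap (-0.22, SE 0.07, limma adjusted p = 0.536). Tspan10 had -0.05 (SE 0.06), Tspan33 -0.06, Tspan5 -0.01 and Tspan15 -0.0042, and these 4 overlapped between genotypes in the brightest probe set. The other 3 Tspan33 probe sets gave -0.13, -0.10 and -0.18, and 2 of them, at -0.13 and -0.18, did not overlap.

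The list of inhibitors was not sorted by the protease that each of them blocks. Timp3, which blocks ADAM17 and ADAM10, had a log2 difference of -0.09 (SE 0.04). Timp2 and Timp1 had -0.18 (SE 0.13) and -0.09 (SE 0.09). The other Timp2 probe sets above the filter gave -0.31, -0.23, -0.32 and -0.21, all with overlap, and a Timp2 probe set below it gave -0.02. None of the 4 tested inhibitor genes passed, with adjusted p from 0.66 upwards. Of the convertases, Furin had -0.03 (SE 0.12), Pcsk6 -0.05 and Pcsk7, higher without overlap, 0.23 (SE 0.13). Of 10 tested partners of the cytoplasmic tails, 0 passed. Snx9, an endocytic sorting nexin gene, had -0.17 (SE 0.09) and -0.22 in a dimmer probe set, both lower without overlap. Grb2, a signalling adaptor gene, had -0.12 (SE 0.08) and Sh3pxd2b, a podosome scaffold gene, -0.07 (SE 0.09). Among all tested genes 15.5% did not overlap, and 10.1% were lower without overlap.

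The 35 tested ADAM substrates held the genes with the largest differences among the lists, and 0 passed with 6 arrays. F11r, which encodes the junctional adhesion molecule JAM-A, read 8.28, 8.24 and 8.45 on the vimentin-deficient arrays and 7.84, 8.03 and 7.95 on the wild-type arrays, without overlap (log2 difference 0.38, SE 0.08, limma adjusted p = 0.276). A dimmer F11r probe set gave -0.01, so the difference depended on the probe set. Cd163, the haemoglobin scavenger receptor gene, had -0.35 (SE 0.10) and Aplp2, of the amyloid precursor family, -0.31 (SE 0.10), both lower without overlap. All 5 Aplp2 probe sets were lower, at -0.24 to -0.45, and those at -0.43 and -0.45 overlapped. The largest values in the list rested on vimentin-deficient replicate 3: Cd74, the invariant chain gene, read 13.57 on it and 9.78 to 10.52 on the other 5 arrays, and Axl, a phagocytic receptor tyrosine kinase gene, read 10.65 on it and 8.27 to 8.66 on the others. Without that array their log2 differences went from 0.89 to -0.29 and from 0.87 to 0.20, and neither passed. Axl did not overlap, as 8.64 and 8.66 also lay above the wild-type 8.27 to 8.54. Sorl1 was higher without overlap too, at 8.31, 8.16 and 9.46 against 7.98, 7.92 and 7.89. Its log2 difference was 0.715 (limma adjusted p = 0.636), and without that array 0.31 (limma adjusted p = 0.0504). Its other probe sets gave 0.17 and 0.64, also without overlap. Among all tested genes 15.5% did not overlap.

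Without vimentin-deficient replicate 3, 5 of the 35 substrates passed, or 14.3%, with 3 lower and 2 higher. Of all tested genes 2.34% passed, 1.03% lower and 1.31% higher. The list was written with earlier results of these data known, so its share is a description and not a test. Sdc1, a cell surface proteoglycan gene, fell by 0.77 on the log2 scale (limma adjusted p = 0.00582), Tnfrsf1b, which encodes TNF receptor 2, fell by 0.71 (limma adjusted p = 0.0264) and Trem2, a lipid receptor gene of macrophages, fell by 0.39 (limma adjusted p = 0.0324). Spn, the sialophorin gene, rose by 0.53 (limma adjusted p = 0.00383) and F11r by 0.32 (limma adjusted p = 0.0457). On the left-out array Sdc1 read 9.48 against 8.06 to 8.52 in wild-type cells, Tnfrsf1b 10.94 against 10.09 to 10.63 and Spn 7.79 against 7.89 to 7.97, each on the other side of the wild-type arrays. With 6 arrays the log2 differences were -0.14 (SE 0.50) for Sdc1, -0.29 (SE 0.35) for Tnfrsf1b, 0.31 (SE 0.18) for Spn and -0.28 (SE 0.11) for Trem2. A second Trem2 probe set gave -0.02. Tnf itself, the best-known ADAM17 substrate, had 0.07 (SE 0.06), and the receptor gene Tnfrsf1a 0.05 (SE 0.08).

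In the remaining lists 0 genes passed in either fit. Aph1b, a subunit gene of gamma-secretase, was lower without overlap, at 8.40, 8.35 and 8.41 against 8.59, 8.67 and 8.56 (log2 difference -0.22, SE 0.06, limma adjusted p = 0.413), and a second Aph1b probe set gave -0.27 with overlap. Aph1a had -0.10 (SE 0.07), without overlap in its brightest probe set only, and Sppl2a 0.15 (SE 0.19). Bace1, the beta-secretase gene, had -0.16 (SE 0.06) and Rhbdl2, a rhomboid protease gene, -0.06 (SE 0.04), both lower without overlap in the brightest probe set. Dimmer Bace1 probe sets gave -0.18, -0.10 and -0.16, and only that at -0.10 overlapped. Mmp17, a membrane-anchored matrix metalloprotease gene, had -0.05 (SE 0.04) with overlap. Among all tested genes 10.1% were lower without overlap. Of the EGF family, Hbegf had -0.15 (SE 0.09), Nrg2 -0.04 (SE 0.05) and Egfr -0.04 (SE 0.10). Of the other 9 ADAM genes tested, 8 had lower means, with a median of -0.07 over the 9. Adam33 had -0.14 (SE 0.06) with overlap. Adam21 at -0.09 (SE 0.04) and Adam1b at -0.07 (SE 0.04) were lower without overlap. Adam11 was higher without overlap, at 0.03 (SE 0.05), but its dimmer probe set gave -0.09, lower without overlap. Among the secreted relatives, the ADAMTS genes, the median was -0.04 over 14 tested genes. Of these 14, 10 had lower and 4 had higher means. Adamts1 had -0.16 (SE 0.06) and Adamts7 -0.12 (SE 0.05), both without overlap, and Adamts16 had -0.11 (SE 0.06) with overlap. The largest differences were higher, Adamtsl5 at 0.35 (SE 0.23) and Adamts10 at 0.27 (SE 0.20), both with overlap. Without vimentin-deficient replicate 3 they were 0.06 and 0.03. A dimmer Adamtsl5 probe set gave -0.23, lower without overlap.

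**Figure D5:**
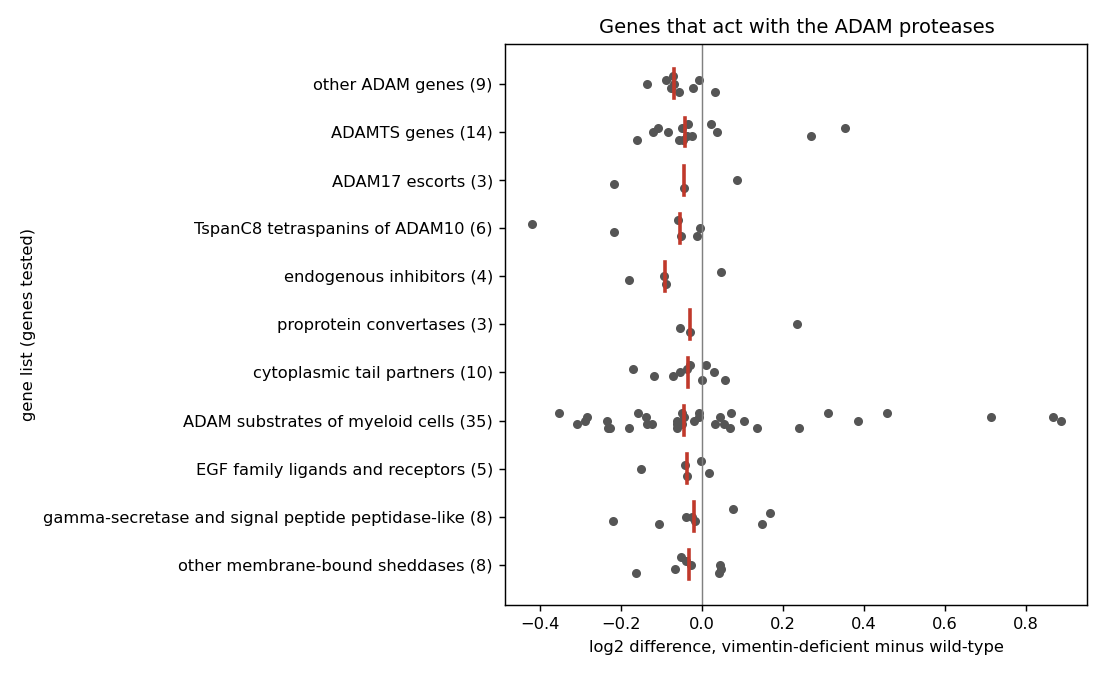
Log2 difference between genotypes with 6 arrays (horizontal axis, vimentin-deficient minus wild-type) for the tested genes of 11 lists (vertical axis, number tested in parentheses); each grey point is a gene and red bars are list medians. The medians lie between -0.09 and -0.02, and 0 of the 105 genes passed the limma threshold.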

How the data were processed

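The values are log2 probe set values as deposited by the authors; how they were summarised and normalized is not stated in the labels. Array medians lay between 7.23 and 7.25. Probe sets were named by the platform annotation, with symbols updated by Entrez ID. The brightest probe set stood for each gene, and genes at or above the 40th percentile, 6.93, were tested (13445 of 18193). The fit used limma 3.58.1 in R 4.3.3 (lmFit, and eBayes with a trend of variance on mean) and no covariates, with Benjamini-Hochberg adjustment over all tested genes and a threshold of 0.05. The procedure was also run on simulated data, drawn as independent normal values with the same spread on every array. That run held no array that stood apart, so it does not cover the part of vimentin-deficient replicate 3. SEs of the gene used in the fit are moderated, and those of other probe sets come from the SDs of both groups. Named genes are the 6 ADAM genes, Vim, the 3 tested genes of smallest p per list, those called, the 5 genes closest to Adam19 and the 2 brightest macrophage markers. Other genes were named after their values were seen. The ADAM genes and lists were chosen with earlier results of these data known. No protein sequences were used here.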

Additional observations from a re-analysis of the deposited data

How the results depend on the processing

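Adam19 was tested in 13 of 14 alternative settings, since it lies below the 60th percentile filter. Its log2 difference stayed between -0.80 and -0.62 in all 13, the smallest being -0.62 with the mean of its probe sets. It was called in 7 of the 13. It was not called with the mean of its probe sets or with the replicate number as a block. Nor was it called without vimentin-deficient replicate 2 or wild-type replicate 1, 2 or 3. Because Adam19 was chosen on this same contrast, the count describes the gene and does not test it. The number of called genes was 3 with 6 arrays, 93 with array quality weights, 0 with the replicate block, 5 when every probe set was tested and 0 to 315 without single arrays, with 315 without vimentin-deficient replicate 3. Called genes of the lists numbered 0 to 6 without single arrays, 6 of them without vimentin-deficient replicate 3, and 0 under the other alternatives. Between arrays of the same replicate number, deviations from the genotype means correlated at 0.50, -0.19 and 0.05 for numbers 1, 2 and 3. Arrays of unlike number gave -0.50 to 0.41, the highest being vimentin-deficient replicate 3 with wild-type replicate 2. With so few arrays these values cannot settle whether the replicate numbers pair the arrays. With the replicate block the log2 difference of Adam19 was -0.76 (SE 0.06). Array values give no depth, and signal close to background limits what dim genes can show.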
